A study of Mus musculus with 8 samples.

Results

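The thrombospondins and a small set of proteins that bind them or share their repeats were followed in the left and right heart fields of the mouse embryo. The set holds 8 of the 48526 genes of the count table, namely the thrombospondins *Thbs1*, *Thbs2*, *Thbs3*, *Thbs4* and *Comp*, the receptors *Cd47* and *Cd36*, and *Spon1*, a spondin. *Thbs1* brought the set in because it was among the genes most biased to the left in these libraries, so its left and right values are given as a description without a test. The other 7 genes were taken for their family or their binding to thrombospondins, and those with enough reads are tested in a fit across all genes.

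Heart fields were dissected from 4 wild-type male C57bl6/J embryos at E8.5f, called L29-3, L43-5, L46-8 and L49-3. The piece taken reached from the headfolds down through the second somite, without the heart tube or the dorsal tissue. Cutting it along the midline gave each embryo a left and a right library, 8 in all, and no mutant or treated embryo was compared. In bulk tissue of this kind, fewer cells of a type and less RNA per cell cannot be told apart.

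Thrombospondins are secreted glycoproteins that bind calcium and sit in the matrix around cells without forming its scaffold. THBS1 and THBS2 assemble as trimers and carry type 1 repeats, which bind CD36 and, in THBS1, activate latent TGF-beta, while their C-terminal end binds CD47. THBS3, THBS4 and COMP assemble as pentamers and lack type 1 repeats.

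Libraries held between 1147446 and 3520753 counted reads (median 1916167). A count of 3, the limit that 0 reads allow for counting error alone, corresponded to 0.844 to 2.645 CPM, which are counts relative to the library total, across libraries. Testing was limited to the 9744 genes whose normalized count reached 20 in 4 or more of the 8 libraries, and 6 of the 8 members passed. *Thbs2* and *Comp* did not. The heart field label was checked with 13 marker genes, all of which passed this filter, and their summed level was 532 to 1022 CPM on the left and 658 to 916 CPM on the right. Between the sides, 297 genes, or 3.05% of those tested, passed the threshold of the study, which asks for a fold of 1.2 or more and an unadjusted p no higher than 0.05. Of these genes 1, or 0.0103% of those tested, had an adjusted p under 0.05 in edgeR, and it was not a member.

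The trimeric members *Thbs1* and *Thbs2* differed widely in level. Their coding sequences were 67.0% identical over 3471 aligned bases, and the longest run of bases shared by both was 26 bases. A stretch of the coding sequence around this run is shown because it holds the longest exact match between a well measured member and its nearly absent paralog. Capitals mark the shared run, the stretches are coding bases 2284 to 2369 of *Thbs1* and 2287 to 2372 of *Thbs2*, and the letters are from the GENCODE vM21 transcripts.
Thbs1: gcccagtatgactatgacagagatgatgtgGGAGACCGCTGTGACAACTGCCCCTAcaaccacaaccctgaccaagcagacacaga
Thbs2: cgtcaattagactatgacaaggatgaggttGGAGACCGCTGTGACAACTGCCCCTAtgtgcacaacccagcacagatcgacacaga
No other gene was at least 90% identical to *Thbs1* or *Thbs2* over 100 bases or more, apart from the antisense transcript named next.

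*Thbs1* (ENSMUSG00000040152), which encodes the matrix protein that gives the family its name, lies on the plus strand of chromosome 2 of GRCm38 from 118111876 to 118127133. The reads on the left and right were 106 and 45 in L29-3, 108 against 50 in L43-5, 44 against 16 in L46-8, and 48 against 25 in L49-3. As normalized counts, which are reads scaled to a common library size, the left and right libraries had 85.9 and 55.7 in L29-3, 70.4 against 26.7 in L43-5, 35.8 against 20.3 in L46-8, and 74.3 against 41.55 in L49-3. The left library was higher in all 4 embryos (12.4% of tested genes went 1 way in all embryos), although the sides overlapped across embryos, since the left library of L46-8 was below the right libraries of L29-3 and L49-3.

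Left libraries averaged 66.6 ± 21.6 normalized counts and right libraries 36.1 ± 15.8 (SD, n = 4 embryos). The ratio of left to right was 1.55 in L29-3, with a 95% exact counting interval of 1.08 to 2.25. It was 2.64 (1.87 to 3.77) in L43-5, 1.75 (0.970 to 3.33) in L46-8 and 1.78 (1.075 to 3.01) in L49-3. The widest of these intervals was in L46-8, the embryo with the fewest *Thbs1* reads.

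The fitted log2 fold change of *Thbs1* was 0.95, a fold of 1.93. By this value *Thbs1* was in place 5 among genes higher on the left and in place 9 by absolute change, and *Thbs1* was chosen by these values. Without L43-5 the fold change was 0.74 on the log2 scale, the lowest of 11 alternatives, and without L29-3 it was 1.08, the highest. The exons of *Thbs1* share 208 bases with an antisense transcript, *Gm29233*, which had 0 reads in every library.

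*Thbs2* (ENSMUSG00000023885), on the minus strand of chromosome 17 from 14665500 to 14694235, was near the limit of detection. It had 12 reads over all libraries, with 2 and 2 on the left and right in L29-3, 4 against 1 in L43-5, 1 against 0 in L46-8, and 0 against 2 in L49-3. At this depth a difference between the sides could not be detected, and no fold is given.

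**Figure D1:**
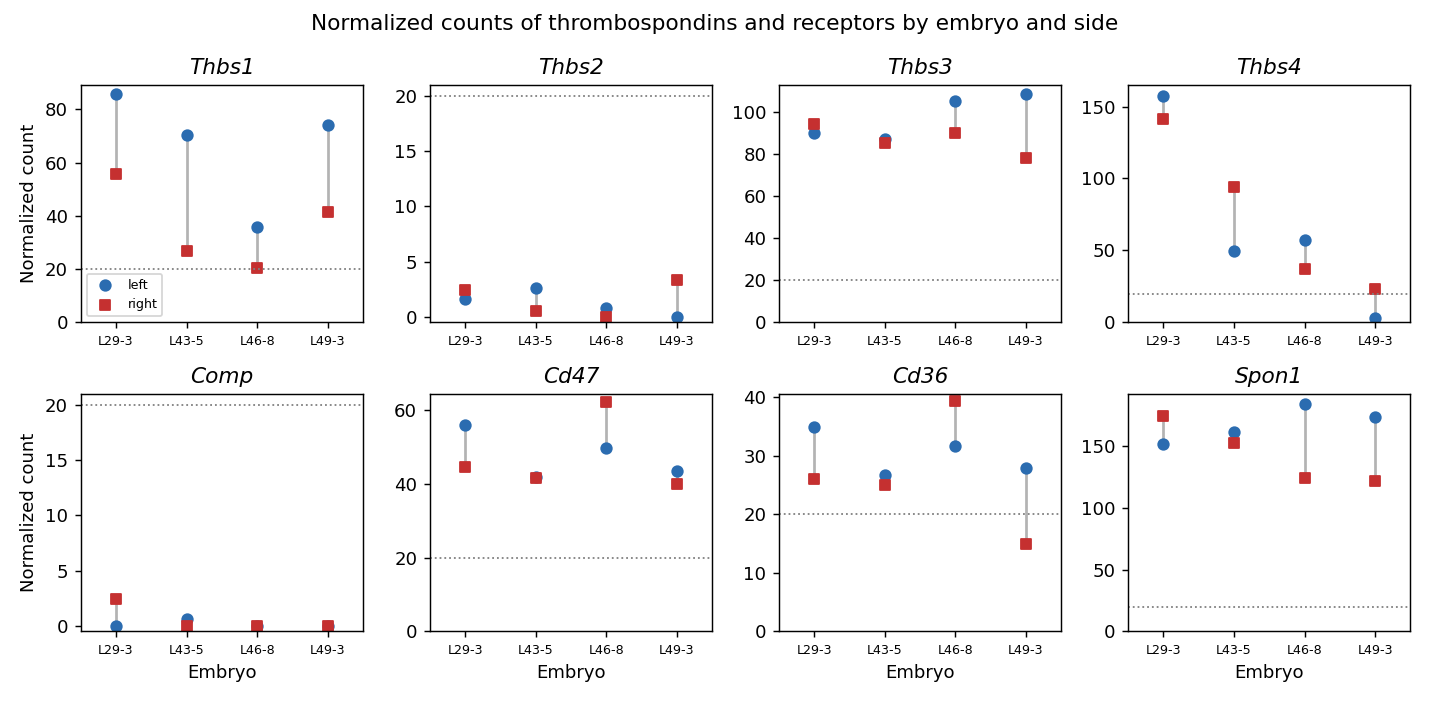
Normalized counts (reads scaled to a common library size, y axis) of the 8 members in the left (circles) and right (squares) libraries of each of the 4 embryos (x axis), with a line joining the libraries of an embryo and a dotted line at the filter of 20. For *Thbs1* the left library is above the right in each embryo, from 85.9 against 55.7 in L29-3 to 35.8 against 20.3 in L46-8, while for *Thbs4* the embryos differ in direction.

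The pentameric members *Thbs3* and *Thbs4* were measured well, and *Comp* was almost absent. *Thbs2* stood near the bottom of the levels measured, above *Comp*, and *Thbs3* and *Thbs4* stood at the top. Promoters are shown for these 3 paralogs, the thrombospondins with an entry in the set of RefSeq promoters used here. Each is the 250 bases before the annotated start, written 5′ to 3′ on the strand of the gene (GRCm38.p6), at chr17:14694263-14694512 on the minus strand for *Thbs2*, chr3:89214930-89215179 on the plus strand for *Thbs3* and chr13:92794819-92795068 on the minus strand for *Thbs4*. Capitals mark a match on either strand to the TATA box motif TATAAA, the CCAAT box motif CCAAT and the GC box motif GGGCGG.
Thbs2: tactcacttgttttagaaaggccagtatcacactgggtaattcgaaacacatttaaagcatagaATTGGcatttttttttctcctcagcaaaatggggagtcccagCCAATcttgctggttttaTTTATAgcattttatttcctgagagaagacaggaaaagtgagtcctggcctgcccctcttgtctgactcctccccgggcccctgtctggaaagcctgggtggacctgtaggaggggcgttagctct
Thbs3: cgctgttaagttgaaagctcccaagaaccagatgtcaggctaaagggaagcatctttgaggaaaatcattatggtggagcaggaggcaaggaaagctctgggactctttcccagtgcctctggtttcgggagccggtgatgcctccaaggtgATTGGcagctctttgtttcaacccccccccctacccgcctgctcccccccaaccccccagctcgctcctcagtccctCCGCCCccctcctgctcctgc
Thbs4: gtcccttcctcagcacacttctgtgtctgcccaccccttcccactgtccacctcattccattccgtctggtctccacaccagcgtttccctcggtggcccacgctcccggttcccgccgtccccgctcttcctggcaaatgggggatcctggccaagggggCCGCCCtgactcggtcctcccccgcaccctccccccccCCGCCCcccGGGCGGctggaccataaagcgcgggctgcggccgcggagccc
The *Thbs2* promoter holds 1 TATAAA and 2 CCAAT matches and no GGGCGG, and its GC content is 46.8%. That of *Thbs3* has 1 CCAAT and 1 GGGCGG match with a GC content of 58.8%, and that of *Thbs4* has 3 GGGCGG matches with 70.8%. Among 32817 RefSeq promoters of the same length, 12.37% hold TATAAA, 33.83% hold CCAAT and 32.72% hold GGGCGG. None of the 3 promoters holds AATCCACA, the motif of FOXH1, a partner of the SMAD proteins in Nodal signaling, which is in 0.72% of all promoters. These matches describe letters in a window and are not binding sites.

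*Thbs3* (ENSMUSG00000028047), a matrix protein of bone and other connective tissue, lies on the plus strand of chromosome 3 from 89215180 to 89226837. Its left and right libraries had 89.98 and 94.1 normalized counts in L29-3, 87.4 against 85.4 in L43-5, 105 against 90.1 in L46-8, and 108 against 78.1 in L49-3. The sides overlapped and every library lay within a fold of 1.39 of every other, the narrowest range of any member. Left libraries averaged 97.7 ± 10.55 and right libraries 86.9 ± 6.87 (SD, n = 4).

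The log2 fold change of *Thbs3* was 0.14 (SE 0.129, adjusted p = 0.988, edgeR quasi-likelihood test with Benjamini-Hochberg adjustment), with the left higher in 3 of 4 embryos, and it was 0.06 without L49-3. The exons of *Thbs3* share 318 bases with those of *Mtx1* on the opposite strand, a gene with 492 reads over all libraries. The use of strand in counting is not given in the sources used here. *Mtx1* had a log2 fold change of -0.06 (adjusted p = 0.993, edgeR).

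*Thbs4* (ENSMUSG00000021702), a thrombospondin found in muscle, tendon and heart, lies on the minus strand of chromosome 13 from 92751590 to 92794818. It was the most variable member. The reads on the left and right were 194 and 114 in L29-3, 76 against 176 in L43-5, 70 against 29 in L46-8, and 2 against 14 in L49-3. As normalized counts these were 157 and 141 in L29-3, 49.55 against 93.9 in L43-5, 57.0 against 36.8 in L46-8, and 3.10 against 23.3 in L49-3. The highest library had 50.8 times the value of the lowest, and 4.27 times without L49-3.

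Embryos went in opposite directions for *Thbs4*. The left was lower in L43-5, with a ratio of left to right of 0.528 (95% exact counting interval 0.398 to 0.694), and in L49-3, with 0.132 (0.0146 to 0.576). The ratio was 1.54 (0.985 to 2.46) in L46-8 and 1.12 (0.884 to 1.42) in L29-3. The counting interval thus left out equality in L43-5 and L49-3 and held it in the other embryos. Left libraries averaged 66.7 ± 64.9 normalized counts and right libraries 73.8 ± 54.35 (SD, n = 4), so that the spread between embryos exceeded the difference.

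The log2 fold change of *Thbs4* was -0.25 (SE 0.271, adjusted p = 0.988, edgeR with Benjamini-Hochberg adjustment), and -0.53 with DESeq2. The log2 ratios of single embryos had a mean of -0.68 and an SD of 1.42, a spread that the SE of the fit does not show. The sign of the fitted value turned without L43-5, where it was 0.09. The spread of *Thbs4* left after side and embryo were fitted, given as a biological coefficient of variation, was 21.95%, higher than in 97.2% of tested genes, against 9.33% for *Thbs3* and a median of 10.4% over all genes.

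The level of *Thbs4* moved with that of cardiomyocyte genes, a relation that was examined after the values were seen. The heart tube was removed at dissection, yet 10 cardiomyocyte markers summed to 443 to 3566 CPM on the left and 1237 to 3327 CPM on the right. The left and right sums were 3566 and 3327 CPM in L29-3, 2017 against 2862 in L43-5, 2295 against 1237 in L46-8, and 443 against 1437 in L49-3. The lowest sum was in the left library of L49-3, where *Thbs4* had 2 reads.

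The ratio of left to right of the summed markers was 1.07 in L29-3 and 1.86 in L46-8, but 0.705 in L43-5 and 0.308 in L49-3, the same direction as *Thbs4* in all 4 embryos. Taken singly, 4 of the 10 markers had this direction in all 4 embryos. Among tested genes, 6.78% went with the summed markers in all 4 embryos. Across the 8 libraries, which come in pairs from 4 embryos, Pearson's r of log2 levels of *Thbs4* and the summed markers was 0.98, and 0.94 in the 6 libraries without L49-3. Of all other tested genes, 12 had an r at least as high, 4 of them from the marker list itself. The r of *Thbs4* was 0.99 with *Myh6* and 0.98 with *Actc1*, and 0.76 with *Myh7* and 0.65 with *Myl2*, all genes of the contractile apparatus, and -0.84 with *Nppa*, a marker with at most 1 read in any library. The part of cardiomyocyte RNA in the level of *Thbs4* was not tested. For *Thbs1* the r with the same sum was -0.03, and 0.62 without L49-3.

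**Figure D2:**
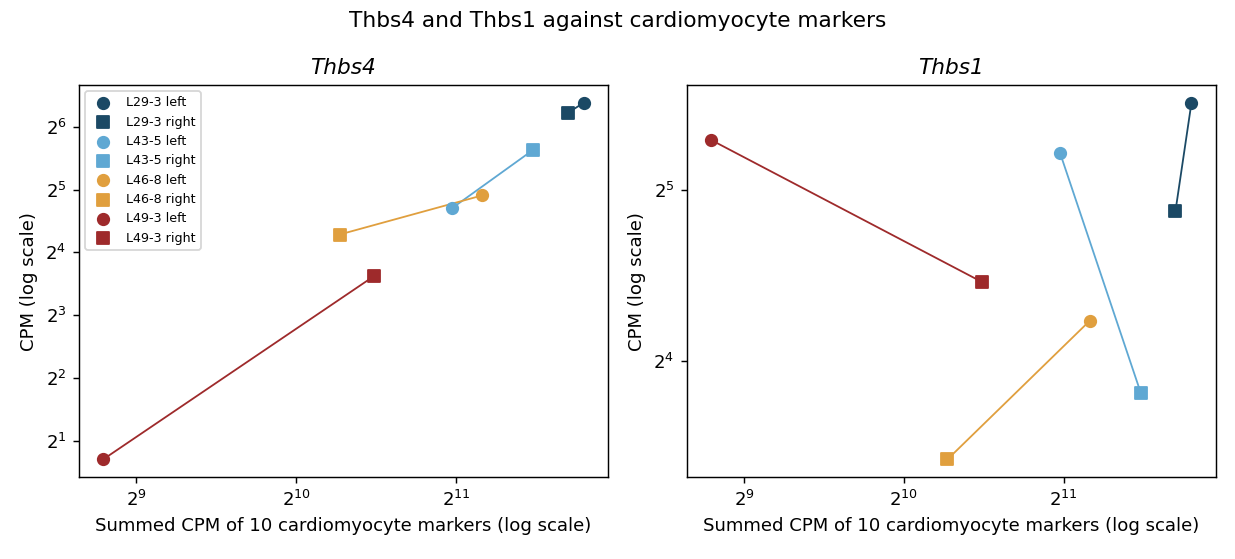
Level of *Thbs4* (left panel) and of *Thbs1* (right panel) (CPM, log scale, y axes) against the summed level of 10 cardiomyocyte markers (CPM, log scale, x axes) in the 8 libraries, with color for the embryo, circles for left and squares for right, and a line joining the libraries of an embryo. *Thbs4* rises with the markers (r = 0.98) from the left library of L49-3 to those of L29-3, while for *Thbs1* r is -0.03 over all libraries and 0.62 without L49-3.

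*Comp* (ENSMUSG00000031849), the thrombospondin of cartilage, lies on the plus strand of chromosome 8 from 70373558 to 70382066. It had 2 reads in the right library of L29-3, 1 in the left library of L43-5 and 0 in the other 6 libraries. No fold is given, and a difference between sides was not detectable at this depth. *Comp* is the member closest in sequence to *Thbs4*, with 69.2% identity over 2253 aligned coding bases. Their longest shared run, also of 26 bases, is shown in capitals within coding bases 2257 to 2342 of *Thbs4* and 1648 to 1733 of *Comp*, as the longest exact match of these paralogs.
Thbs4: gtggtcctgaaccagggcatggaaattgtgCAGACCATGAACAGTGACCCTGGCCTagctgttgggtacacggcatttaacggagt
Comp: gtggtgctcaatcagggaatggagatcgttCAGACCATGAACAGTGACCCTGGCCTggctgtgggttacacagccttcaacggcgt
Identity was 66.8% between *Thbs3* and *Thbs4* and 68.8% between *Thbs3* and *Comp*. Between either trimeric and any pentameric member it was 60.5% to 64.7%, and the longest shared run over all 10 pairs was from 15 to 26 bases.

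The receptors *Cd47* and *Cd36* were both detected in every library, and neither passed the threshold of the study between sides. CD47 is a membrane protein of many cell types, which binds the C-terminal end of thrombospondins and also SIRPA. *Cd47* (ENSMUSG00000055447, plus strand of chromosome 16 from 49800533 to 49915010) had 55.9 and 44.6 normalized counts on the left and right in L29-3, 41.7 against 41.6 in L43-5, 49.65 against 62.2 in L46-8, and 43.35 against 39.9 in L49-3. The sides overlapped, with the highest value in a right library. Left libraries averaged 47.7 ± 6.49 and right libraries 47.1 ± 10.3 (SD, n = 4), and the log2 fold change was 0.02 (SE 0.179, adjusted p = 0.998, edgeR).

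CD36 is a scavenger receptor for lipids and binds the type 1 repeats of THBS1 and THBS2. *Cd36* (ENSMUSG00000002944, minus strand of chromosome 5 from 17781690 to 17888801) had 34.9 and 26.0 normalized counts on the left and right in L29-3, 26.7 against 25.1 in L43-5, 31.7 against 39.3 in L46-8, and 27.9 against 14.96 in L49-3. The lowest and the highest values were both in right libraries, from 9 and 31 reads. Left libraries averaged 30.3 ± 3.72 and right libraries 26.3 ± 10 (SD, n = 4). The log2 fold change was 0.18 (SE 0.243, adjusted p = 0.988, edgeR), with the left higher in 3 of 4 embryos, and it was 0.37 without L46-8, 0.11 without L29-3 and 0.06 without L49-3.

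*Spon1* encodes a secreted spondin of the floor plate that shares the type 1 repeats. *Spon1* (ENSMUSG00000038156, plus strand of chromosome 7 from 113765998 to 114043370) had 152 and 175 normalized counts on the left and right in L29-3, 161 against 153 in L43-5, 184 against 124 in L46-8, and 173 against 121 in L49-3. The left was lower in L29-3, about level in L43-5 and higher in both other embryos. The ratio was 0.872 (95% exact counting interval 0.697 to 1.09) in L29-3, 1.47 (1.155 to 1.88) in L46-8 and 1.42 (1.05 to 1.935) in L49-3. Left libraries averaged 167.5 ± 14.1 and right libraries 143 ± 25.2 (SD, n = 4).

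The log2 fold change of *Spon1* was 0.21 (SE 0.129, adjusted p = 0.988, edgeR). Without L29-3 it was 0.35 and passed the threshold of the study, with an adjusted p of 0.999 (edgeR), and without L46-8 it was 0.09. The summed level of 10 floor plate and notochord markers overlapped between sides, with 94.7 to 181 CPM on the left and 113 to 194 CPM on the right. Pearson's r of log2 levels of *Spon1* and this sum was -0.58, and -0.51 without L49-3. The 2 had the same direction between sides in 1 of 4 embryos.

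Apart from *Thbs1*, 0 of the 5 members tested passed the threshold of the study, and 0 had an unadjusted p under 0.05, with edgeR, DESeq2 or limma-voom. Of all 9744 tested genes, 3.05% passed the threshold and 425 had such a p with edgeR, so 0 of 5 members is near these shares. These members were not shown to be level between the sides. *Thbs3*, *Cd36*, *Cd47* and *Spon1* had SEs from 0.129 to 0.243 on the log2 scale and that of *Thbs4* was 0.271. These SEs and the spread between embryos set the size of change that could be seen. For *Thbs4* the log2 ratios of single embryos had an SD of 1.42.

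**Figure D3:**
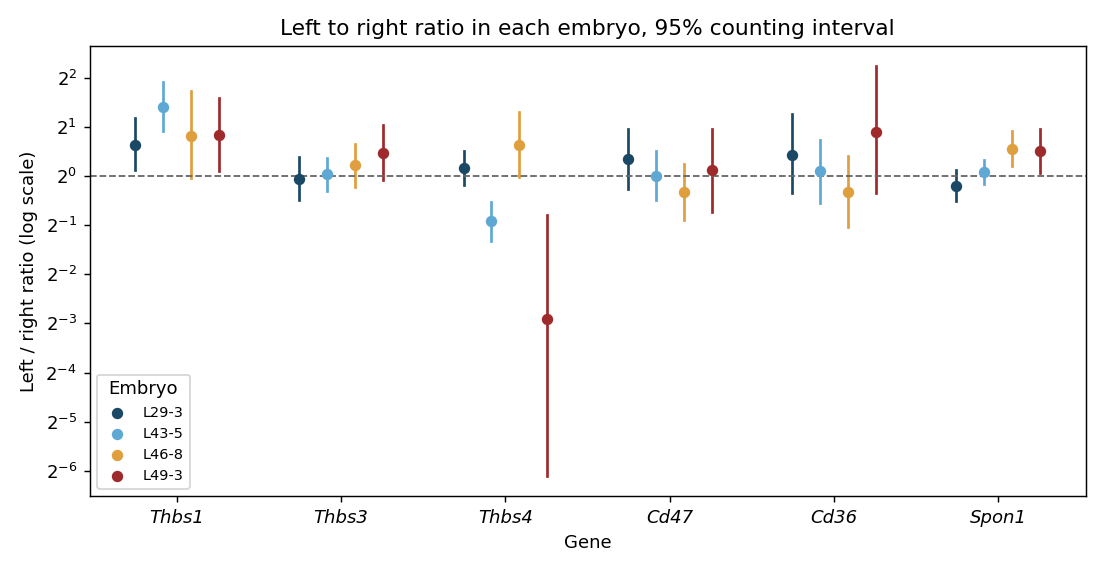
Ratio of left to right (log scale, y axis) in each of the 4 embryos for the 6 members with enough reads (x axis). Points are ratios of reads scaled for library size, bars are 95% exact counting intervals, and the dashed line marks equality. All 4 points of *Thbs1* lie above the line, from 1.55 to 2.64, and those of *Thbs4* run from 0.132 to 1.54.

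Levels of different members were compared per kilobase of exon. The median over the 8 libraries was 9.89 CPM per kilobase for *Thbs3* (range 8.59 to 11.85), 8.53 for *Thbs4* (0.496 to 25.3) and 7.96 for *Spon1* (6.20 to 9.33). Below them were *Thbs1* with 4.23 (1.77 to 7.495), *Cd36* with 4.01 (2.21 to 5.80) and *Cd47* with 3.69 (3.37 to 5.25). *Thbs2* with 0.0919 (0 to 0.252) and *Comp* with 0 (0 to 0.440) came last. On this scale *Thbs3* was above 47.0% of the tested genes, *Spon1* above 39.4% and *Thbs1* above 18.8%, so none of the set was among the abundant transcripts.

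Neighbours in this order were often not separated. *Spon1* was above *Thbs1* in 8 of 8 libraries and *Cd47* above *Thbs2* in 8 of 8, and these are the steps that held in all 4 embryos. *Thbs3* was above *Thbs4* in 5 libraries, *Thbs4* above *Spon1* in 3, *Thbs1* above *Cd36* in 5 and *Cd36* above *Cd47* in 7. The receptors and *Thbs1* thus formed a middle group whose ranges overlap, between *Spon1* and the nearly absent *Thbs2* and *Comp*.

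**Figure D4:**
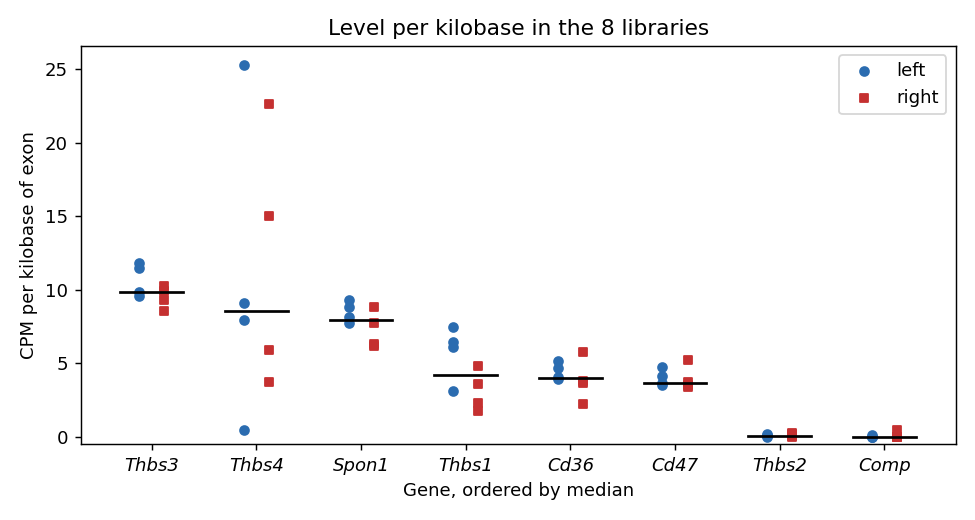
Level per length (CPM per kilobase of exon, y axis) of all 8 members, ordered by median (x axis), in the left (circles) and right (squares) libraries, with a bar at the median. *Thbs4* spans 0.496 to 25.3 while *Thbs3* stays within 8.59 to 11.85.

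The genes with a pattern most like that of *Thbs1* were found by Pearson's r of log2 levels over the 8 libraries, among 9743 other tested genes with a median r of -0.02. The closest were *Tenm4*, a teneurin of the cell surface, with r = 0.96, the RNase family gene *Zc3h12c* with 0.92, *C2cd2* with 0.92, the ETS factor *Elf1* with 0.91 and *Smad5*, a transducer of BMP signals, with 0.91. A total of 8 genes had an r of at least 0.9. Leaving out L49-3 gave values from 0.91 to 0.99 for these 5 genes. *Tenm4* had 484.8 and 387.5 normalized counts on the left and right in L29-3, 429 against 339.9 in L43-5, 386.6 against 288.1 in L46-8, and 462.9 against 395.5 in L49-3. The left library was higher in all 4 embryos for each of the 5 genes, a feature that the likeness to *Thbs1* favours. With the other members, the r of *Thbs1* was from -0.26 to 0.45.

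Platelets and megakaryocytes are a known store of THBS1, and their markers were read beside it. Of 10 such markers, 0 passed the filter, and *Gp9*, *Gp5*, *Treml1* and *F2rl2* had 0 reads in every library. *Pf4* had 1 read in all and *Ppbp* had 2. The summed level was 9.45 to 13.7 CPM on the left and 3.36 to 8.82 CPM on the right, with the left above the right in 4 of 4 embryos, and 113 of the reads were from *Itga2b*. Pearson's r of log2 levels of *Thbs1* and this sum of few reads was 0.55, and 0.50 without L49-3. It is 1 of 66 such values of a member and a marker list. Endothelial markers summed to 452 to 587 CPM on the left and 331.5 to 572 CPM on the right, with the left higher in 3 of 4 embryos. Markers of the neural tube summed to 219 to 513 CPM on the left and 298 to 584 CPM on the right, with the left higher in 1 of 4. All 7 tested neural tube markers had a log2 fold change below 0, as did all 8 tested cardiomyocyte and all 5 tested paraxial mesoderm markers. Of the neural tube markers, *Sox1* with -0.98 (SE 0.353) and *Pax6* with -0.83 (SE 0.289), transcription factors of neural progenitors, passed the threshold of the study as lower on the left, each with an adjusted p of 0.988 (edgeR). The part of these tissues in the values of *Thbs1* was not tested.

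Genes that work with thrombospondins were followed in 7 lists written from general knowledge, with earlier results of these data known. Of 72 genes tested, 8 passed the threshold of the study, all higher on the left, where 1.63% of all tested genes were higher and 1.42% lower. With no filter 12 were higher and 1 lower, and without L49-3 5 were higher and 1 lower. The median log2 fold change of all tested genes was near 0, at -0.0042.

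Receptors and uptake partners include the integrins and LRP1, which clears thrombospondins from the cell surface. Of 21 genes, 18 were tested, 1 was higher on the left and 0 lower, with a median log2 fold change of 0.08. The gene was *Itga9*, the alpha 9 integrin chain, with 309.7 and 289.7 normalized counts on the left and right in L29-3, 314.2 against 264.7 in L43-5, 394.7 against 284.2 in L46-8, and 336 against 197.8 in L49-3. Every left library was above every right library, as for 1.51% of tested genes, and 2.51% were without overlap in either direction. Its log2 fold change was 0.37 (SE 0.0989, adjusted p = 0.988, edgeR). The values for *Itgav* and *Itgb1*, integrin chains that bind THBS1, were 0.23 and 0.07, and that of *Lrp1* was 0.24, below the fold of the threshold. Of the 18 tested genes of this list, 12 had a value above 0 and 6 a value below 0, down to -0.23.

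Other proteins with type 1 repeats were split in the spondin and thrombospondin-domain genes and the ADAMTS proteases. Of 30 genes in the first list, 10 were tested and 1 was higher on the left, with a median of 0.27. This was *Sema5a*, a guidance semaphorin, with 98.09 and 76.75 normalized counts on the left and right in L29-3, 108.2 against 75.77 in L43-5, 107.4 against 91.36 in L46-8, and 106.8 against 59.83 in L49-3. Its left libraries were all above its right libraries, and the log2 fold change was 0.46 (SE 0.133, adjusted p = 0.988, edgeR).

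Of 24 ADAMTS genes, 8 were tested and 3 were higher on the left, and the median over those tested was 0.30 on the log2 scale. These were *Adamts1* with 0.37 (SE 0.151) and *Adamts9* with 0.28 (SE 0.12), proteases that cleave versican, and *Adamts12* with 0.64 (SE 0.263), each with an adjusted p of 0.988 (edgeR). *Adamts1* and *Adamts9* were higher on the right in L29-3 and on the left in the other 3 embryos. Both lost the call with DESeq2, without the block and without any one of L43-5, L46-8 and L49-3, and *Adamts12*, with 7 to 45 reads per library, lost it with DESeq2 and without L29-3, L46-8 or L49-3, and was below the filter without L43-5 or with at least 10 counts in every library. None of 5 tested genes for the glycosylation of type 1 repeats passed, and their median was 0.01.

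Latent TGF-beta is activated by THBS1. Of 18 genes of its storage, activation and response, 10 were tested and 1 was higher on the left, and the median over those tested was 0.15 on the log2 scale. The gene was *Skil*, a repressor of SMAD-driven transcription that TGF-beta and Nodal signals induce, with 0.41 (SE 0.146, adjusted p = 0.988, edgeR). Its call was lost with DESeq2 and without L29-3. The ligands *Tgfb1* and *Tgfb2* had values of 0.14 and 0.20. *Smad7*, another gene of this list, had -0.26, with the left higher in 1 of 4 embryos. It was the 1 tested gene of the list below 0.

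Among 16 matrix partners, 9 were tested, all 9 had a log2 fold change above 0, and 2 passed, with a median of 0.20. In other lists, the genes above and below 0 numbered 12 and 6 for receptors, and 8 and 2 for spondin and thrombospondin-domain genes. They numbered 7 and 1 for ADAMTS genes, 3 and 2 for glycosylation, and 9 and 1 for latent TGF-beta. For CD47 and CD36 signalling they were 4 and 9. *Col5a1*, the collagen V chain that starts fibril assembly, had a log2 fold change of 0.84 (SE 0.127, adjusted p = 0.0785, edgeR). Its adjusted p depended on the fit, with 0.000335 in DESeq2, 6.91e-19 in edgeR with no filter, 0.0162 without L46-8 and 0.902 without the block, the lowest and highest of 11 alternatives being those with no filter and without the block. Its counts were 553.7 and 359 on the left and right in L29-3, 441.4 against 265.2 in L43-5, 540.4 against 190.3 in L46-8, and 366.9 against 250.9 in L49-3, so that the sides did not overlap. *Col3a1*, a fibrillar collagen, had 0.59 (SE 0.238, adjusted p = 0.988, edgeR), was higher on the right in L29-3, and lost the call without the block and without any one of L43-5, L46-8 and L49-3. *Fn1*, the fibronectin gene, had 0.20, below the fold of the threshold.

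Of 16 genes that act downstream of CD47 and CD36, 13 were tested and 0 passed with edgeR, where 3.05% of all tested genes passed. Their median log2 fold change was -0.07, and 0 had an unadjusted p under 0.05 in edgeR, as 425 of all 9744 tested genes had. Over all lists, *Itga9*, *Sema5a* and *Col5a1* passed the threshold in the main fit and in each of the 11 alternatives.

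**Figure D5:**
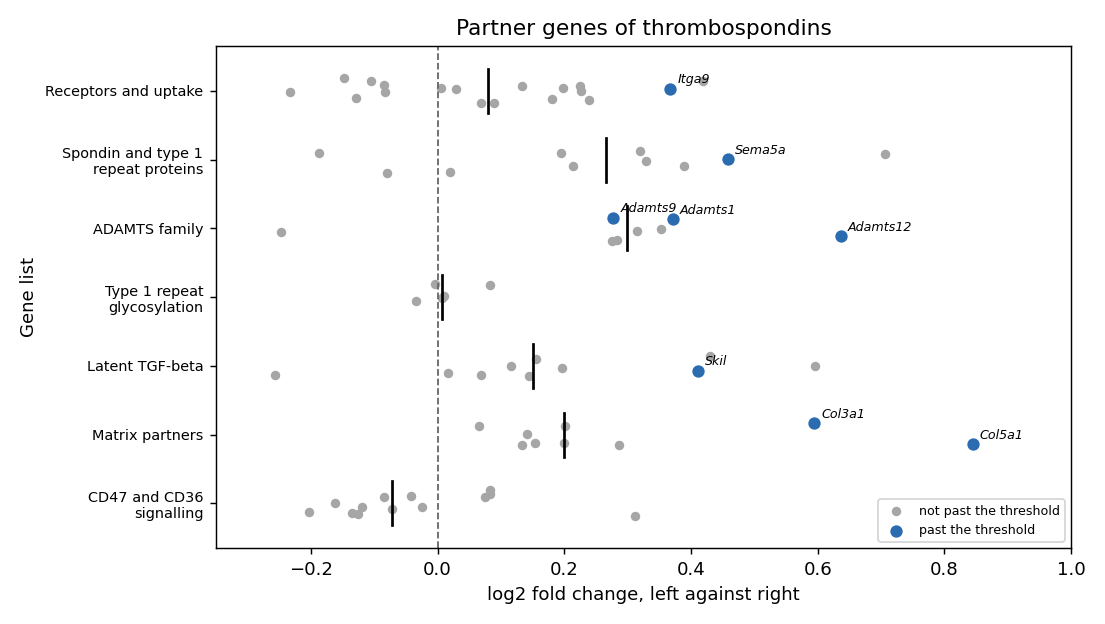
Log2 fold change of left against right (x axis) of each tested gene in the 7 lists (y axis), with a vertical bar at the median of each list and larger named points for genes past the threshold of the study. The 8 named genes all lie right of 0, up to *Col5a1* at 0.84.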

How the data were processed

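RNA from paired left and right heart fields of 4 embryos was sequenced as 8 libraries, with the side and the embryo of each given by the sample labels. The values deposited by the authors are raw read counts per gene. Paired-end reads of polyadenylated RNA had been mapped to GRCm38 with Hisat2 and counted with featureCounts once duplicates were discarded. The versions of these tools and the use of strand are not given in the sources used here. Since duplicates were discarded, the counts, and not the reads sequenced, set the precision.

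Symbols, exons and coding sequences were taken from GENCODE vM21, which gave a symbol to 48144 of 48526 identifiers and none to 382. Promoters were matched by symbol in a set of RefSeq promoters (GRCm38.p6). In that set 5 of the 8 members had an entry, those without being *Thbs1*, *Comp* and *Spon1*.

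Left was set against right by the quasi-likelihood test of edgeR 4.0.16 (R 4.3.3), with TMM factors and a block for the embryo. Genes entered when their count, divided by DESeq2 size factors, reached 20 in 4 or more libraries. P-values were adjusted over all 9744 genes by Benjamini-Hochberg. They rest on the spread left after side and embryo were fitted, which edgeR draws toward that of other genes. The SEs were derived from this test, as the absolute log2 fold change divided by the square root of its F statistic. The pairing comes from the embryo, and the correlation of deviations between its sides was 0.437 in L49-3, 0.19 in L43-5, 0.165 in L29-3 and -0.016 in L46-8. Libraries differed by more than sampling noise, with a chi-square per degree of freedom of 1.93 or more in every pair. Exact counting intervals and the limit of 3 counts cover counting error only. Log2 levels for correlations use CPM with a pseudocount of 0.5.

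All 8 members are named, with up to 3 genes per list with the smallest p among those past the threshold and the 5 genes most like *Thbs1*. Other genes with values were named for their known part or after their values were seen. These were *Mtx1*, *Gm29233*, *Itgav*, *Itgb1*, *Lrp1*, *Tgfb1*, *Tgfb2*, *Smad7*, *Fn1* and the cardiomyocyte, neural tube, cranial neural crest, blood and platelet markers. The members and lists were chosen with earlier results of these data known. The marker lists cover 11 tissues, each as a summed CPM. Results were recomputed with DESeq2 1.42.0, limma-voom (limma 3.58.1), DESeq2 size factors or library size alone in edgeR, without a filter or with a minimum of 10 counts per library, without the block, with a pseudocount of 2 CPM for single embryos, with levels not divided by length, and leaving out 1 embryo at a time. The fit was tested on simulated data.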

Additional observations from a re-analysis of the deposited data

How the results depend on the processing

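Depth limits *Thbs2*, *Comp* and the platelet markers, and 4 embryos limit every comparison of the sides. Against 297 genes past the threshold of the study, 687 passed with no filter and 59 with DESeq2. In the partner lists 8 genes passed, against 13 with no filter and 4 with DESeq2, and from 5 to 11 when an embryo was left out, with 5 without L43-5. The number of members past the threshold, *Thbs1* aside, was 0, and from 0 to 1 when an embryo was left out, the 1 being *Spon1* without L29-3. The log2 fold change of *Thbs4*, -0.25, was -0.53 with DESeq2. This log2 fold change ranged from -0.50 to 0.0946 when an embryo was left out, the value of 0.0946 being without L43-5. That of *Cd47*, 0.02, ranged from -0.0882 to 0.14, with -0.0882 without L29-3 and -0.0041 without L49-3. The cause was not tested. With no replicate block, so that the pairing by embryo was ignored, 233 genes passed, 133 higher and 100 lower on the left, the log2 fold change of *Thbs1* was 0.92 and no call on a member changed. With library size alone the split was 190 higher and 113 lower, against 159 and 138. The count with an adjusted p under 0.05, 1 in the edgeR fit, was 34 with no filter, 0 with at least 10 counts in every library or no block, and 2 with DESeq2. The tested members other than *Thbs1* had adjusted p-values of at least 0.956 in every fit that held them. Beyond the values given here, no log2 fold change of a tested member other than *Thbs1* changed its direction or side of the threshold under the alternatives. Without division by length, *Spon1* came first in the order of levels, *Thbs3* was in place 2 and *Thbs4* in place 3. Chosen after seeing the data, leaving out L49-3 changed the ratio of the highest to the lowest library from 50.8 to 4.27 for *Thbs4* and from 2.63 to 1.57 for *Cd36*.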

Other observations

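The receptors *Cd47* and *Cd36* varied together across the 8 libraries, with a Pearson's r of log2 levels of 0.82, and *Thbs3* and *Spon1* had an r of 0.75. Over the 66 pairs of a member and a marker list, *Cd36* had an r of 0.85 with the summed endothelial markers, a tissue in which CD36 is known, and 0.55 without L49-3. With the summed markers of primitive blood the r was 0.79 for *Cd36* and 0.84 for *Cd47*, and 0.87 for each without L49-3. These blood markers summed to 24.4 to 40.7 CPM on the left and 24.7 to 52.4 CPM on the right, and 437 of their reads were from *Tal1*, the single gene of the 10 that passed the filter, while *Hbb-y* had 4 reads, *Hba-x* 45, *Hbb-bh1* 23 and *Gata1* 2. *Thbs3* had an r of 0.88 with cranial neural crest markers and 0.68 without L49-3, with the same direction between sides in 2 of 4 embryos. Of the reads of these crest markers, 1859 were from *Twist1* and 1037 from *Ets1*, while *Sox10* had 30, *Foxd3* 18 and *Tfap2b* 27. All these values are descriptions over libraries that come in pairs from 4 embryos, and were picked from the 66 after they were seen.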
